A study of Mus musculus with 2 samples.

Results

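Calcium channels and pumps move calcium ions into the cytosol from the endoplasmic reticulum (ER) or from outside the cell, and back out again. The 10 genes described here were chosen by symbol: Itpr1, Itpr2, Itpr3, Stim1, Stim2, Orai1, Atp2a2, Atp2a3, Atp2b1 and Trpv2. All 10 were among the 18987 genes of the count table, and all 10 passed the filter on low counts (a mean over both libraries of at least 1 CPM, counts per 1000000 counts of the scaled library) that 12086 genes passed.

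When an osteoclast precursor meets RANKL, phospholipase C produces inositol trisphosphate (IP3), and IP3 receptors open to release calcium from the ER. STIM proteins sense the emptying store and open ORAI channels in the plasma membrane, a route called store-operated calcium entry. SERCA pumps return calcium to the ER and PMCA pumps expel it from the cell. The repeated calcium rises activate calcineurin and the transcription factor NFATc1, which drives osteoclast formation.

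The study compared 2 RNA sequencing libraries of RAW264.7, a mouse line of macrophage character that can be turned into osteoclast-like cells with RANKL. Both groups were plated at 7500 cells per cm2, were given 100 ng/ml RANKL after 24 h, and differ by shRNA: 1 library carried a control shRNA and 1 an shRNA against Cpeb4, which encodes an RNA-binding protein of the cytoplasmic polyadenylation family. The series title places collection at day 3, and the labels name no clones, pools or cultures. With 1 library per group no test was possible, so every value compares these libraries, and the 95% intervals cover counting error only.

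The control library held 79399680 counts in all and that with Cpeb4 shRNA 119350322, 1.5 times as many. Cpeb4 had 25270 and 13491 counts, a log2 ratio of -1.73. Of 12 markers of the macrophage and osteoclast lineage 9 passed the filter, among them Csf1r (-0.61) and Cd68 (-1.04), while Adgre1 (12 and 101 counts) and Fcgr1 (88 and 19) did not, and Mertk is not analysed here. Of 20 markers of other cell types 0 passed, and the 4 that were listed had at most 27 counts. With Cpeb4 shRNA 5 of the 9 lineage markers were at least 2-fold lower, where 11.8% of all genes past the filter were. The osteoclast markers Calcr (-3.49), Ctsk (-2.54) and Acp5 (-2.25) led these, and 0 of the 9 were higher, beside 14.6% of all genes. Lyz2, a macrophage marker, went the other way at 0.998 (418 and 1475 counts). Under total-count scaling 1 was higher (Lyz2, 1.23), beside 20.6% of all genes, and 4 were lower, beside 8.6%, with Cd68 at -0.81. The summed level of the 9 was 45435 CPM in control and 10514 CPM with Cpeb4 shRNA, mostly Ctsk and Acp5, without which the sums were 5485 and 3035 CPM. In RNA from a whole culture, fewer cells of a type and less RNA per cell cannot be told apart, and the part of the osteoclast share in the values below was not tested.

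Of the 10 genes, 1 was at least 2-fold higher in the Cpeb4 shRNA library, where 14.6% of all genes past the filter were, and 0 were at least 2-fold lower, where 11.8% of all genes were. These counts are near the background. Below 0 were 6 of the 10 log2 ratios (Cpeb4 shRNA over control, after TMM scaling), beside 5741 of the 12086 genes past the filter. The median of the 10 was -0.55 beside 0.05 over all genes past the filter. None of the 10 lay between Itpr2 (-0.52) and Stim2 (0.56), so this median sits at the edge of a gap. Itpr1 was the gene past 2-fold. The 4 genes with ratios above 0 were Itpr1, Stim2, Atp2a3 and Atp2b1, and the 6 below 0 were Itpr2, Itpr3, Stim1, Orai1, Atp2a2 and Trpv2. Each of the 10 kept its sign under the other scalings, pseudocounts and trend removal that were tried. A pseudocount cannot change a sign, and each other scaling moves all ratios alike, by 0.23 at most, less than any of the 10 lies from 0. Trend removal was thus the only setting in which the signs were not fixed beforehand.

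**Figure D1:**
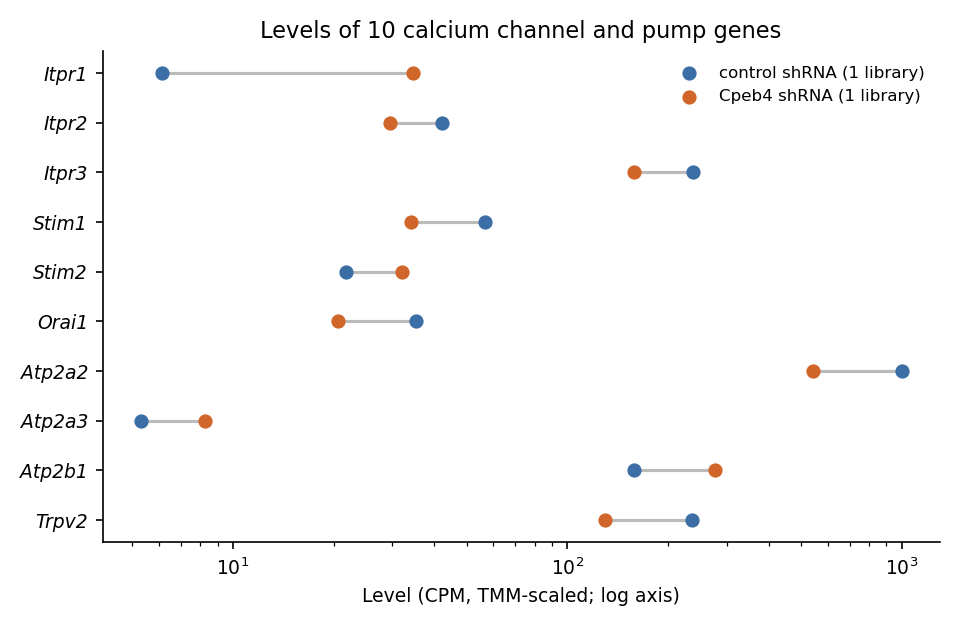
Level of each gene in CPM after TMM scaling (log axis), 1 point per library with a line joining the 2 libraries of a gene. Itpr1 spans 6.16 to 34.5 CPM, the longest line, while Atp2a2 has the highest level in both libraries, 999.7 CPM in control and 542.6 CPM with Cpeb4 shRNA.

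CPEB proteins bind U-rich elements in the 3′ untranslated region of mRNAs, written in DNA letters as TTTTAT or TTTTAAT, so the 3′ ends of these genes were searched for those letters on the mRNA strand. Each motif was counted separately, in the longest coding transcript marked principal in GENCODE M21 for GRCm38, which also gives the exon numbers below. In 6 of the 10 genes at least 1 match was found, and in Itpr2, Stim1, Orai1 and Trpv2 no match (4 genes). Of the 10397 genes past the filter with an annotated 3′ untranslated region 60.4% held a match, so the share among the 10 is near that of all genes. The match nearest the 3′ end is shown for each of the 6, all within the last exon and its untranslated part, with the motif in capitals and 12 bases on either side.

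Itpr1: gccacgtttgggTTTTATttctttgtcaca
Itpr3: gcttcacagggcTTTTATgtttaacttatt
Stim2: tgtttgtcatatTTTTATgtagtttgaaat
Atp2a2: atgtctaatgtaTTTTATtgtaacagacat
Atp2a3: acaatatgattaTTTTATatgtaaatcaag
Atp2b1: agccactgagccTTTTATtatttgtctatt

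These windows are at chr6:108550886-108550915 for Itpr1, chr17:27121900-27121929 for Itpr3 and chr5:54119853-54119882 for Stim2, all on the plus strand. The Atp2a2 window is at chr5:122456412-122456441 on the minus strand, and those of Atp2a3 and Atp2b1 are at chr11:72992776-72992805 and chr10:99026057-99026086 on the plus strand. Atp2b1, with the longest 3′ untranslated region of the 10 genes (3024 bases), held 7 TTTTAT and 2 TTTTAAT, or 2.98 matches per kb. Atp2a2 held 5 in 811 bases (6.17 per kb), Stim2 4 in 2308 (1.73), Itpr1 2 in 1270 (1.57), Itpr3 1 in 695 (1.44) and Atp2a3 1 in 1335 (0.75), beside 1.35 per kb over the 3′ untranslated regions of all genes past the filter. In the last 200 bases, 2 of the 9 genes with a region that long, Atp2a2 and Atp2b1, held a match, and 30.3% of 9222 such regions did. The regions without a match were 191 bases long in Itpr2, 318 in Trpv2, 776 in Orai1 and 1418 in Stim1. A match is no evidence of binding, and the relation to the log2 ratio was not tested.

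IP3 receptors are the ER channels that IP3 opens. Itpr1 (ENSMUSG00000030102; mm10 chromosome 6, 108213096 to 108551109, plus strand, 62 exons) encodes the type 1 receptor, best known from neurons. Its 451 counts in control were 6.16 CPM, and its 4461 counts with Cpeb4 shRNA were 34.5 CPM. The log2 ratio was 2.49 (2.35 to 2.63), a 5.60-fold higher level, and 96.6% of all genes past the filter had a ratio no higher. Across the alternatives the value lay between 2.16 and 2.72.

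The other IP3 receptor genes differed the opposite way and by less. Itpr2 (chromosome 6, 146108299 to 146502223, minus strand), whose type 2 receptor has been linked to calcium oscillations in osteoclast precursors, had 3097 counts (42.3 CPM) in control and 3820 (29.5 CPM) with Cpeb4 shRNA. Its log2 ratio was -0.52 (-0.59 to -0.45). Itpr3 (chromosome 17, 27057304 to 27122223, plus strand), which encodes the type 3 receptor, had 17396 counts (237.5 CPM) and 20477 counts (158.3 CPM), a log2 ratio of -0.59 (-0.62 to -0.56). Both were thus lower in the Cpeb4 shRNA library by less than 2-fold, 1.43-fold and 1.501-fold.

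The make-up of the receptor family does not depend on scaling between libraries, since each share is taken within 1 library. Itpr1 took 2.15% of IP3 receptor counts in control (exact binomial 95% interval 1.96 to 2.36%) and 15.5% with Cpeb4 shRNA (15.1 to 15.9%). Itpr2 went from 14.8% to 13.3%, and Itpr3 from 83.1% to 71.2%. Itpr3 was the leading type in both libraries, with 38.6 counts for each Itpr1 count in control and 4.59 with Cpeb4 shRNA. Per kilobase of annotated exon (the union of all exons) the Itpr1 share was 1.14% and 8.78%. With the length of the longest coding transcript in its place it was 2.03% and 14.8%. The summed level of the 3 receptor genes was 286.0 CPM in control and 222.3 CPM with Cpeb4 shRNA, a log2 ratio of -0.36 (-0.39 to -0.34). The ryanodine receptor gene Ryr1, which encodes another ER release channel, had 397 and 1397 counts and a log2 ratio of 0.99 (0.83 to 1.16). Total-count scaling put Ryr1 past 2-fold, at 1.23, as did trend removal, at 1.04. Ryr3 was listed with 2 and 4 counts and did not pass the filter, and Ryr2 is not analysed here.

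**Figure D2:**
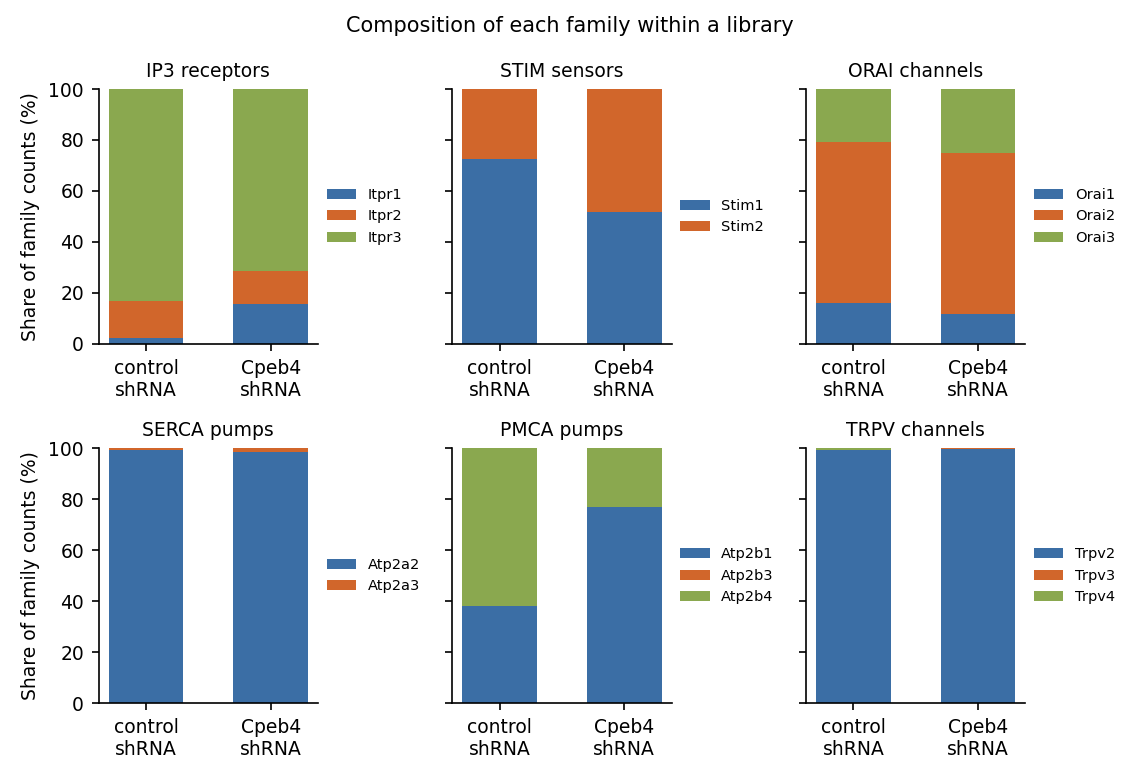
Share of a family's counts that each gene took within each library (stacked bars, percent of the family's counts, 1 library per bar; Atp2b3, Trpv3 and Trpv4 are too small to see or nearly so). Itpr1 grows from 2.15% to 15.5% of IP3 receptor counts, Stim2 from 27.6% to 48.3% of STIM counts and Atp2b1 from 38.2% to 76.9% of PMCA counts.

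STIM1 and STIM2 are ER membrane proteins that sense luminal calcium. STIM2 responds to smaller losses of calcium than STIM1. Stim1 (chromosome 7, 102267806 to 102437319, plus strand) had 4167 counts (56.9 CPM) in control and 4426 (34.2 CPM) with Cpeb4 shRNA, a log2 ratio of -0.73 (-0.80 to -0.67). Stim2 (chromosome 5, 53998499 to 54121057, plus strand) had 1591 counts (21.7 CPM) and 4143 counts (32.0 CPM), a log2 ratio of 0.56 (0.48 to 0.64). The counting intervals of the STIM genes lie on opposite sides of 0.

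Stim2 made up 27.6% of STIM counts in control (26.5 to 28.8%) and 48.3% with Cpeb4 shRNA (47.3 to 49.4%). Counts of Stim1 were 2.62 times those of Stim2 in control and 1.07 times with Cpeb4 shRNA. Which gene leads per kilobase with Cpeb4 shRNA depends on the length used. Stim1 was at 0.53 times the level of Stim2 over the union of exons, and at 1.21 times over the longest coding transcript. In control Stim1 led on both scales, at 1.30 and 2.96 times.

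ORAI1 forms the pore that STIM proteins open, and ORAI2 and ORAI3 are related subunits. Orai1 (chromosome 5, 123015074 to 123030456, plus strand, 2 exons) had 2582 counts (35.3 CPM) in control and 2673 (20.7 CPM) with Cpeb4 shRNA. Its log2 ratio was -0.77 (-0.85 to -0.69). Orai2 had 10096 and 14420 counts, a ratio of -0.31. Orai3 had 3295 and 5774 counts, a ratio of -0.01 that was 0.22 under total-count scaling and 0.12 once a smooth trend over GC content and length had been taken out. Orai1 thus took 16.2% of ORAI counts in control (15.6 to 16.7%) and 11.7% with Cpeb4 shRNA (11.3 to 12.1%), and Orai3 20.6% and 25.3%. Orai2 held 63.2% and 63.1%, intervals that overlap. Per kilobase of exon union, Orai2 was at 1.48 times Orai1 in control and at 2.04 times with Cpeb4 shRNA.

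**Figure D3:**
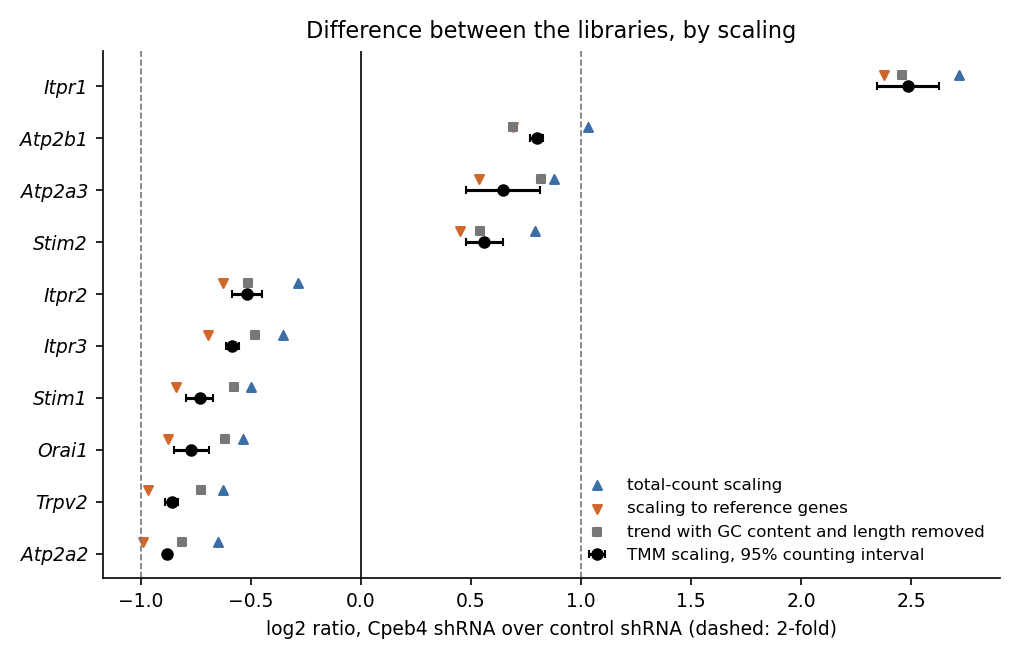
Log2 ratio of Cpeb4 shRNA over control shRNA for each gene (black points, TMM scaling, bars are 95% counting intervals) with the value under 3 alternatives above each point. Itpr1, Atp2b1, Atp2a3 and Stim2 lie to the right of 0 under all of those shown and the other 6 genes to the left; Itpr1 is past the dashed 2-fold line in each, and Atp2b1 under total-count scaling.

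SERCA pumps refill the ER. Atp2a2 (ENSMUSG00000029467; chromosome 5, 122453513 to 122502225, minus strand, 20 exons) encodes SERCA2, the form found in most tissues. Its 73218 counts in control were 999.7 CPM and its 70207 counts were 542.6 CPM with Cpeb4 shRNA, so its raw count was lower in the deeper library. The log2 ratio was -0.88 (-0.90 to -0.87), a 1.84-fold lower level and the lowest ratio of the 10 genes. It lay between -0.99 and -0.65 across the alternatives.

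Atp2a3 (chromosome 11, 72961169 to 72993044, plus strand), which encodes SERCA3, a form found in blood cells among others, differed the opposite way. It had 388 counts (5.30 CPM) and 1071 counts (8.28 CPM), a log2 ratio of 0.64 (0.47 to 0.82). By counts Atp2a3 remained the minor SERCA gene in both libraries. Atp2a3 took 0.527% of SERCA counts in control (0.476 to 0.582%) and 1.503% with Cpeb4 shRNA (1.41 to 1.59%), and the summed SERCA level, 1005.0 CPM in control and 550.9 CPM with Cpeb4 shRNA, followed Atp2a2. Atp2a1 is not analysed here.

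PMCA pumps expel calcium across the plasma membrane. Atp2b1 (ENSMUSG00000019943; chromosome 10, 98914406 to 99026143, plus strand, 21 exons) encodes PMCA1, the widely expressed form. It had 11625 counts, or 158.7 CPM, in control and 35734 counts, or 276.2 CPM, with Cpeb4 shRNA. Its log2 ratio was 0.80 (0.77 to 0.83), a 1.74-fold higher level, and 1.03, past 2-fold, under total-count scaling. Atp2b4, which encodes PMCA4, had 18760 counts (256.1 CPM) and 10694 counts (82.6 CPM), a log2 ratio of -1.63 (-1.67 to -1.60), a 3.10-fold lower level.

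The leading PMCA gene by counts thus differed between the libraries. Atp2b1 took 38.2% of PMCA counts in control (37.7 to 38.8%) and 76.9% with Cpeb4 shRNA (76.5 to 77.3%), and Atp2b4 61.7% and 23.0%. Per kilobase of exon union, Atp2b1 was at 0.50 times Atp2b4 in control and at 2.69 times with Cpeb4 shRNA. Per kilobase of the longest coding transcript it was at 1.02 and 5.50 times, so that the order in control depends on the length. Summed over Atp2b1, Atp2b3 and Atp2b4 the level differed little, 415.1 CPM in control and 359.3 CPM with Cpeb4 shRNA (log2 ratio -0.21, -0.23 to -0.19). Total-count scaling adds 0.23 to every log2 ratio, more than the size of this one, so its sign depends on the scaling. Atp2b3 had 17 and 57 counts and did not pass the filter.

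TRPV2 is a calcium-permeable cation channel of the TRP family, found in macrophages among other cells. Trpv2 (chromosome 11, 62574486 to 62600515, plus strand) had 17298 counts (236.2 CPM) in control and 16823 (130.0 CPM) with Cpeb4 shRNA. Its log2 ratio was -0.86 (-0.89 to -0.83), a 1.82-fold lower level. Trpv2 took 99.2% and 99.9% of the counts of the 3 TRPV genes listed. Trpv4, an osmotically sensitive channel known from osteoclasts, had 129 counts in control and 9 with Cpeb4 shRNA, under the filter at a log2 ratio of -4.66 (-5.82 to -3.69). Trpv3 had 4 and 8 counts.

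Per kilobase of exon union, the levels of the 10 genes in control ran from Atp2a2 (164.4 CPM per kb) and Trpv2 (52.7) through Itpr3 (26.3), Orai1 (15.4), Atp2b1 (10.4), Stim1 (5.49), Stim2 (4.23) and Itpr2 (2.86) to Atp2a3 (1.003) and Itpr1 (0.34). With Cpeb4 shRNA, Atp2a2 (89.2) and Trpv2 (29.0) again led, followed by Atp2b1 (18.1), Itpr3 (17.5), Orai1 (9.001), Stim2 (6.24), Stim1 (3.30), Itpr2 (1.99), Itpr1 (1.88) and Atp2a3 (1.57). Atp2b1 moved from position 5 to 3, and Itpr1 from 10 to 9. Without replicates no spread is known for these levels. With the longest coding transcript as length, Atp2b1 and Orai1 changed places in control, and Stim1 with Stim2 and Itpr1 with Itpr2 did so in the Cpeb4 shRNA library.

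**Figure D4:**
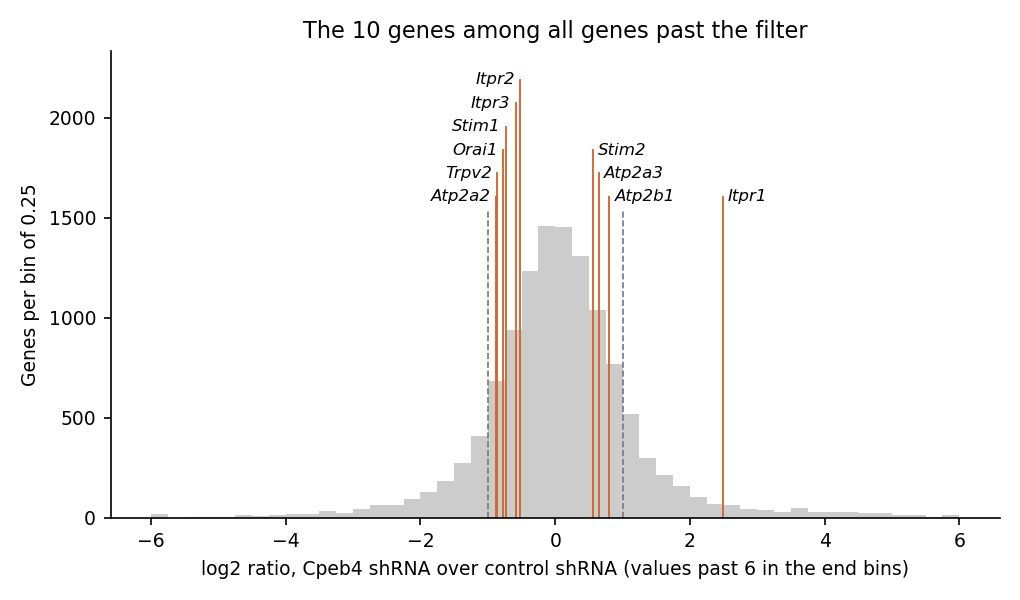
Histogram of the log2 ratios of all 12086 genes past the filter (bins of 0.25, values past 6 in the end bins, dashed lines at 2-fold) with each of the 10 genes as a vertical line whose height carries no value. Itpr1 stands in the upper tail at 2.49, and the other 9 lie between -0.88 and 0.80, inside the dashed lines.

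Other genes of calcium handling were taken from lists of paralogs, channels, regulators and effectors. The table held 113 of 157 such symbols, of which 90 were past the filter. At least 2-fold higher were 9 (10.0%, beside 14.6% of all genes) and at least 2-fold lower were 24 (26.7%, beside 11.8%), and the median log2 ratio was -0.33. Of those past 2-fold 27.3% were thus higher, and 55.4% among all genes. Under total-count scaling 12 were higher and 18 lower, 40.0% higher beside 70.5% among all genes. Of the 24 lower genes under TMM scaling, 8 came from the list of ER calcium-binding proteins. The lists were chosen with earlier results of these data known. The shares of all genes under TMM scaling, 14.6% higher and 11.8% lower, apply beside each list below, most of which hold few genes. For counts under total-count scaling the shares of all genes are 20.6% higher and 8.6% lower.

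Upstream of the IP3 receptors, all 6 phospholipase C genes past the filter were within 2-fold. They ran from Plcd3 (-0.92, past 2-fold at -1.03 with reference genes) to Plcb3 (0.35), and Plcg2, the form that RANK co-stimulation engages, had 105.0 and 104.3 CPM, a ratio of -0.01 (0.22 under total-count scaling, 0.14 after trend removal). Among 13 regulators of IP3 receptors and their relatives, 1 was higher and 5 were lower. Itpripl1, which encodes a protein related to an IP3 receptor-interacting protein, had 418 and 3434 counts (2.22). The related genes Itpripl2 (-1.11, or -0.88 under total-count scaling) and Itprip (-0.52) went the other way. The lowest were Bok (-2.16), a BCL2 family member that binds IP3 receptors, Grina (-1.30) and Erp44 (-1.23), an ER protein that inhibits the type 1 receptor. Under total-count scaling 1 was higher and 2 were lower, and Erp44 was at -0.998. Of 10 regulators of STIM, ORAI and SERCA, 0 were higher and 3 were lower: Cracr2b (-2.88, from 842 and 202 counts), the tethering protein gene Esyt3 (-1.95), and Saraf (-1.34), whose product shuts store-operated entry down.

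Calcium-binding proteins of the secretory pathway, mostly of the ER and listed as ER calcium-binding proteins, had the lowest median of the lists, -1.81. With Cpeb4 shRNA 8 of the 12 past the filter were lower by 2-fold or more, beside 11.8% of all genes, and 0 were higher, beside 14.6%. Every one of the 12 had a ratio under 0 with each scaling, pseudocount and trend setting tried. Among those settings only trend removal could have changed a sign. Pdia4 (-3.99), Hsp90b1 (-3.17) and Hspa5 (-3.09) were lowest, and these are also chaperones of the unfolded protein response. Calr, whose product calreticulin buffers ER calcium, had 4774 CPM in control and 945 CPM with Cpeb4 shRNA (-2.34). The summed SERCA level was lower in the same library by 1.82-fold, and the part of ER content in the SERCA values was not tested.

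**Figure D5:**
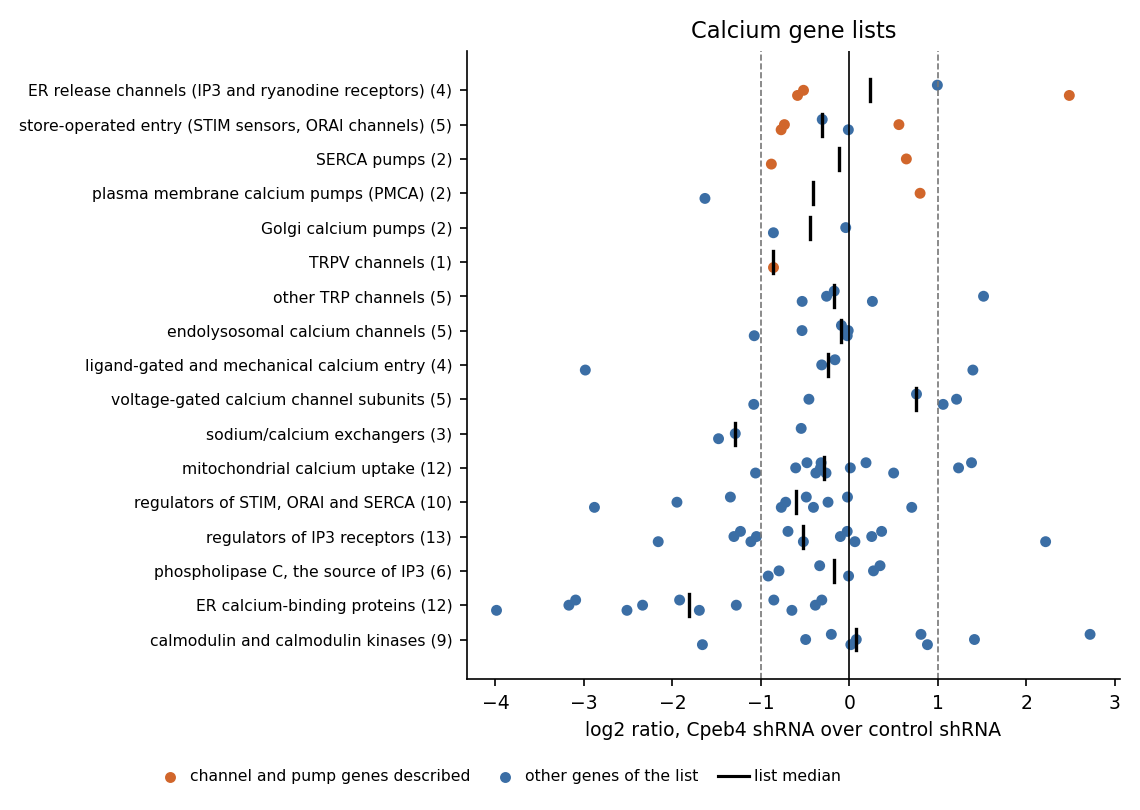
Log2 ratio of every gene past the filter in each calcium list (points, number of genes in brackets, the genes described above in orange), with the list median as a black bar and 2-fold as dashed lines. The ER calcium-binding proteins lie to the left of 0 as a whole, with a median of -1.81, while Itpr1 lies farthest right among the channels.

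Other routes across the plasma membrane went both ways. Among 4 ligand-gated or mechanically gated entry channels, P2rx7, the ATP-gated receptor of macrophages, was higher (1.40, from 961 and 4466 counts) and P2rx5 was lower (-2.98, from 2758 and 616 counts). The other TRP channels held 1 higher gene of 5, Trpm1 (1.52), and 0 lower. Among 5 voltage-gated channel subunits Cacna1f (1.21) and Cacna1a (1.06) were higher and Cacna1b (-1.08) was lower. With a pseudocount of 2 CPM none of these low genes was past 2-fold (0.88, 0.96 and -0.87), nor was Cacna1a with reference genes (0.95) or Cacna1b under total-count scaling (-0.85). Of 3 sodium/calcium exchangers 0 were higher and 2 were lower, Slc24a3 (-1.48) and Slc8a1 (-1.29). Slc8a1 encodes NCX1, which like the PMCA pumps removes calcium from the cytosol.

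Inside the cell, 1 of 5 endolysosomal channels was lower, Mcoln1 (-1.08), and 0 were higher. Mcoln1 was within 2-fold under total-count scaling (-0.84) and after trend removal (-0.93). The Golgi pump gene Atp2c1 was at -0.86 and Tmem165 at -0.04 (0.19 under total-count scaling). Of 12 genes of mitochondrial calcium handling (the uptake list) 2 were higher. They were Mcub (1.38), the inhibitory subunit of the uniporter, and Slc8b1 (1.23, or 0.97 with a pseudocount of 2 CPM), the mitochondrial exchanger. Letm1 was lower (-1.06) but within 2-fold under total-count scaling (-0.83) and after trend removal (-0.96), and Mcu, the pore of the uniporter, was at -0.33. Among 9 genes for calmodulin and its kinases Camk1d (2.72, from 661 and 7692 counts) and Camkk2 (1.41) were higher and Camk1 (-1.66) was lower, and total-count scaling gave 4 higher. Camkk2 encodes a kinase that activates those of the CaMK1 group.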

How the data were processed

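The authors deposited 1 table of whole-number counts per gene, with 1 column per library. Reads had been aligned with HISAT2 to mm10, per the submitters' processing notes. Not given in the sources used here were the counting tool, the aligner's version, strand handling and the annotation. Only genes with at least 1 count in both libraries are listed. Genes at exactly 4 counts are more frequent than those at 3 or 5 (585 against 444 and 286 in control), so the deposited counts may be estimates, and intervals are then approximate. Reads shared between paralogs or overlapping genes could be divided in ways not known. Exons of Itpr1, Itpr3, Orai1 and Atp2a2 overlap annotated antisense or unclassified genes or a microRNA, none of those listed with over 50 counts.

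Counts were scaled with TMM in edgeR 4.0.16 (R 4.3.3; factors 0.922 and 1.08), and CPM values use the effective library sizes. The filter kept genes that averaged 1 CPM or more. The log2 ratio is Cpeb4 shRNA over control, with the exact 95% Clopper-Pearson interval of a gene's share of both counts (SciPy 1.17.1), for counting error only. The median interval width was 0.16. PCR copies are not independent molecules. A gene was counted as higher or lower at 2-fold, a rule of size. GENCODE M21 (GRCm38, the same assembly as mm10) gave coordinates, lengths and sequences and held 18935 of the 18987 identifiers. The scripts were tested on simulated counts.

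All 10 members were named, as were their paralogs, and from each other list the genes past 2-fold, at most 3 highest and 3 lowest, or else the highest and lowest. Calr, Mcu, Plcg2, Itpripl2 and Itprip, and the markers Csf1r, Cd68, Lyz2, Adgre1, Fcgr1 and Mertk, were added after their values were seen. The members and lists were chosen with earlier results of these data known. No gene was named for a similar pattern, since 2 libraries give 1 ratio per gene. Alternatives were other scalings (total count, DESeq2 1.42.0 size factors, upper quartile, 20 reference genes), pseudocounts of 0.5 and 2 CPM, removal of a loess trend with GC content and length, other filters and thresholds, and other lengths.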

Additional observations from a re-analysis of the deposited data

How the results depend on the processing

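No paired analysis was possible because with 1 library in a group there is neither a test nor a pair, and no replicate could be left out. Of the 10 members, 1 was at least 2-fold higher and 0 lower. Total-count scaling gave 2 higher (Itpr1 and Atp2b1; 20.6% of all genes), and a threshold of 1.5-fold gave 3 higher and 5 lower (26.4% and 22.1% of all genes). The members' median log2 ratio of -0.55 was -0.32 with total-count scaling and -0.66 with reference-gene scaling. These settings moved the median of all genes by 0.23 and by -0.11, which sets those changes. The 20 reference genes themselves ran from -1.96 (Tfrc) to 1.93 (Tubb5), with 10 above 0 and 10 below. All other alternatives left the counts at 1 and 0 and moved the median by less than the typical counting interval. No member changed sign under any of 7 alternatives, but only trend removal could have changed one. Pseudocounts cannot, and the shifts of the other scalings were smaller than every member's ratio. Counting precision limited Atp2a3 and Itpr1 most, with 388 and 451 counts in control.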

Other observations

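Trpm2, which encodes a calcium-permeable channel gated by ADP-ribose, was listed with 53 counts in control and 1 with Cpeb4 shRNA. At 0.72 and 0.0077 CPM it lay under the filter, with a log2 ratio of -6.55 (counting interval -11.88 to -4.01). Plcb1 had 3 and 48 counts, a ratio of 3.18 (1.55 to 5.51), and was also under the filter. Both were chosen after their values were seen.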
